A study of Mus musculus with 2 samples.

Results

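The 10 genes described here are the TCF/LEF transcription factors and a set of WNT pathway genes, 10 of the 31053 genes in the count matrices of a single-nucleus RNA sequencing series on mouse inguinal white adipose tissue (iWAT). They were chosen by name: Tcf7l2, Tcf7l1, Tcf7, Lef1, Ctnnb1, Axin2, Sfrp2, Sfrp4, Wif1 and Dact2, because the study connects Lexis, a long noncoding RNA, with the factor TCF7L2. The series holds 1 library labelled Lexis WT and 1 library labelled Lexis KO, both from the iWAT of male mice on a Western diet, each made from 3 mice pooled before nuclei were isolated. The study's methods state that the lymph node was left out. By the study's methods the knockout is adipose specific: mice on a C57BL/6 background with a floxed Lexis allele carry Cre driven by Adipoq, which acts in adipocytes, so that the other cell types keep the gene, and the controls were littermates of these mice. The age of the pooled mice was not given in the labels. Lexis itself was not analysed here, and the file names give each library the other genotype than its label does, while the deposited protocol and design text each give a single group name in place of both. The genotype of neither library was therefore checked against the data, and both are called by their labels throughout. If the file names are right and the labels are not, every ratio between the libraries below turns into its inverse.

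WNT proteins are secreted ligands that bind Frizzled and LRP receptors on neighbouring cells. Without a ligand, a destruction complex built on the Axin scaffold marks beta-catenin for breakdown, and with a ligand beta-catenin enters the nucleus and acts with TCF/LEF proteins, which sit on short DNA motifs of the CTTTGA or CTTTGT type. In fat, WNT/beta-catenin signalling is best known for holding back the conversion of precursors into adipocytes, and TCF7L2 is among the TCF proteins of adipose cells.

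The library labelled WT held 3503 nuclei after filtering, with a median of 1195 unique molecular identifiers (UMIs, each a counted RNA molecule) and 758 genes per nucleus. The library labelled KO held 2852 nuclei, with medians of 3879 UMIs and 1941.5 genes. The 2 libraries shared 10 cell barcodes among these nuclei. Clusters were named from marker genes, and the resulting adipocyte-like, ASPC-like (adipose stem and progenitor cells, with fibroblasts), myeloid-like, endothelial-like, mural-like, T or NK-like, B-like and myocyte-like classes are called by their short names below. There were 418 adipocytes labelled WT and 894 labelled KO, and 298 and 783 ASPCs. T cells numbered 774 and 70, B cells 1233 and 35, and the 52 myocyte nuclei all came from the library labelled KO. T and B cells were thus 22.1% and 35.2% of the nuclei labelled WT, and 2.45% and 1.23% of those labelled KO. Cluster 11, left unnamed and with Ccl19 and Ccl21a among its leading genes, held 149 nuclei labelled WT and 1 labelled KO. Whether lymph node tissue stayed in the library labelled WT was not tested. The adipocyte list was detected in full (10 of 10 markers) in the adipocytes of both libraries, with a summed level, as UMIs scaled to 1e+06 per class and library (CPM), of 14593 where labelled WT and 24214 where labelled KO. In those same adipocytes the B cell list summed to 747 and 155 CPM and the T or NK cell list to 172 and 12 CPM, and in ASPCs the B cell list summed to 701 and 48 CPM. Different clusters hold the classes in the 2 libraries: of the adipocytes, cluster 1 is made of 889 nuclei labelled KO and cluster 4 holds all 418 labelled WT, and of the ASPCs, clusters 5 and 6 hold 382 and 374 nuclei labelled KO and cluster 8 holds 293 labelled WT.

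All intervals below are 95% intervals that cover counting error only. With 1 library per genotype no test between genotypes is possible, no p-value is given, and a ratio between the libraries compares those libraries and not the genotypes. A further difference between the libraries runs through all results. In adipocytes the median log2 ratio, labelled KO over labelled WT, was −0.90 for 1237 genes whose introns add up to 3000 bases or fewer and 1.44 for 1423 genes whose introns exceed 100000 bases, and in ASPCs these medians were −0.62 and 1.58. Among the members, Tcf7l2, Tcf7l1 and Lef1 have more than 100000 bases of intron, and Sfrp2, Sfrp4 and Dact2 only 5.84, 5.84 and 5.79 kb, so ratios of whole classes with at least 50 UMIs are given together with a corrected ratio, from which the median of the 301 genes of nearest intronic length in the same class was taken.

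Of the 4 TCF/LEF genes, Tcf7l2 (ENSMUSG00000024985) lies at chr19:55741797-55933659 in GRCm38.p6, Tcf7l1 (ENSMUSG00000055799) at chr6:72626371-72789045, Tcf7 (ENSMUSG00000000782) at chr11:52246527-52283383 and Lef1 (ENSMUSG00000027985) at chr3:131110297-131224357. The 250 bases before an annotated start are printed for the 3 TCF/LEF genes whose windows hold the motif these factors bind, and for Axin2, the best known transcriptional target of the pathway (RefSeq, GRCm38.p6, each on the strand of its gene, 5′ to 3′). The capitals mark each CTTTGA or CTTTGT, searched on both strands and counted separately, so that a match on the other strand reads TCAAAG or ACAAAG. The Tcf7l2 window, at chr19:55895071-55895320, precedes a start that lies inside the gene, as do the Lef1 and Axin2 windows. The others lie at chr6:72789046-72789295 (minus strand), chr3:131156044-131156293 and chr11:108920099-108920348.
Tcf7l2, internal start: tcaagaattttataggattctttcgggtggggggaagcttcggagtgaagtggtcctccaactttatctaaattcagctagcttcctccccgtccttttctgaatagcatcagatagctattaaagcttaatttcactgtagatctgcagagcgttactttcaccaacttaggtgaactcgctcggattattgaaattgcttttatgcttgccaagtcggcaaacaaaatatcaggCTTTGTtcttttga
Tcf7l1: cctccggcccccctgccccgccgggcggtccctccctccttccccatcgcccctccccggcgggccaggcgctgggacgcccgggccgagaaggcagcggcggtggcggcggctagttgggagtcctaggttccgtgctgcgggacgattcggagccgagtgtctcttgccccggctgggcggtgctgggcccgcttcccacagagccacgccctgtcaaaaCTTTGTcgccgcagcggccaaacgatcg
Lef1, internal start: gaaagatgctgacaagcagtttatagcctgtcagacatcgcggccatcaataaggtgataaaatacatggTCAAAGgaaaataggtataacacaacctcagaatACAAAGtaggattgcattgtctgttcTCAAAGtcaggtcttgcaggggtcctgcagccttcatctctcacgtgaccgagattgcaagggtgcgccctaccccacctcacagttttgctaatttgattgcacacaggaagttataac
Axin2, internal start: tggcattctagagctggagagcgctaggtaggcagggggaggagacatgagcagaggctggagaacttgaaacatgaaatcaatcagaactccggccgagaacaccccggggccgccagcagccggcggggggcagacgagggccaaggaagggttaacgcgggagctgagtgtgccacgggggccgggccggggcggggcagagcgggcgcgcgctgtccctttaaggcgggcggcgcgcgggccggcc

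The Tcf7l2 and Tcf7l1 windows hold 1 CTTTGT each, the Lef1 window 2 CTTTGA and 1 CTTTGT, and the Axin2 window holds neither. Of 32817 mouse windows of this length, 13.8% hold a CTTTGA and 16.5% a CTTTGT, so that such matches are common. Windows were found for 9 of the 10 members. The other windows of Tcf7l2 and Lef1, and those of Tcf7, Ctnnb1, Sfrp2, Wif1 and Dact2, hold neither set of letters. A match describes the sequence and is not a binding site.

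Tcf7l2 was read out across the adipose lineage, the vessel wall and part of the immune compartment. In the library labelled WT it reached 269 CPM in adipocytes (526 UMIs, interval 247 to 293), 359 CPM in ASPCs (interval 318 to 405), 268 CPM in endothelial cells (interval 195 to 360) and 177 CPM in myeloid cells (interval 145 to 212). Lymphocytes stood far below, at 29.3 CPM in B cells (39 UMIs, interval 20.8 to 40.02) and 11.4 CPM in T cells (12 UMIs, interval 5.88 to 19.9). Within this library ASPCs were above adipocytes (adipocytes over ASPCs 0.749, interval 0.646 to 0.872), adipocytes were above myeloid cells (ratio 1.53, interval 1.24 to 1.89) and exceeded B cells 9.20-fold (interval 6.64 to 13.1). The neighbours adipocytes and endothelial cells did not differ beyond counting error (ratio 1.01, interval 0.739 to 1.40), nor did ASPCs and endothelial cells (ratio 1.34, interval 0.973 to 1.89).

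In the library labelled KO, ASPCs, adipocytes and myeloid cells kept this order. Tcf7l2 reached 365 CPM in adipocytes (3152 UMIs, interval 352 to 378), 455 CPM in ASPCs (interval 432 to 479), 494 CPM in endothelial cells (interval 410 to 590), 159 CPM in myocytes (interval 114 to 215) and 124 CPM in myeloid cells (interval 111 to 138). ASPCs again stood above adipocytes (adipocytes over ASPCs 0.801, interval 0.753 to 0.853), and adipocytes stood 2.94-fold above myeloid cells (interval 2.63 to 3.31). ASPCs and endothelial cells were not told apart by counting error (ratio 0.922, interval 0.765 to 1.12). The 44 mural nuclei of this library, too few for a comparison, had 499 CPM (interval 389 to 631). The myeloid clusters were not alike: cluster 9 had 188 CPM (interval 160 to 220) and cluster 3 had 94.0 CPM (interval 80.3 to 109), which makes 2.00-fold between them (interval 1.60 to 2.50).

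**Figure D1:**
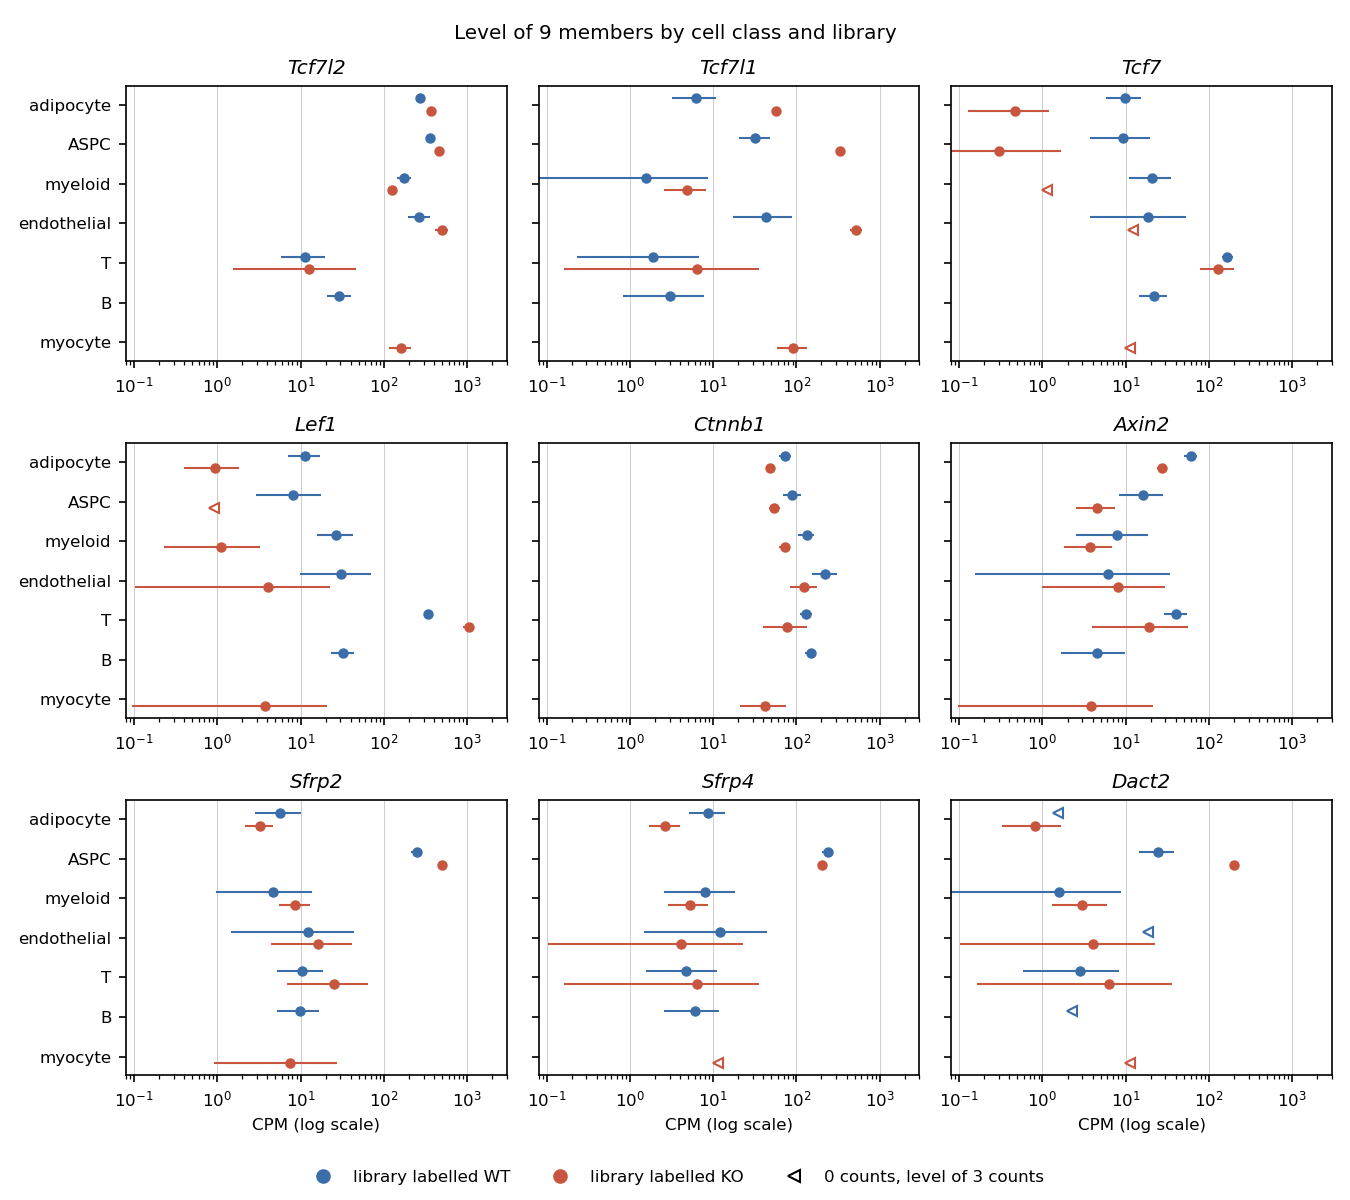
Level of 9 members (Wif1 left out) in CPM on a log axis, by cell class of at least 50 nuclei and labelled library, with exact Poisson 95% intervals for counting error and open triangles at the level of 3 counts where none was counted. Tcf7l2 is read out in adipocytes, ASPCs, endothelial and myeloid cells of both libraries, Lef1 and Tcf7 mainly in T cells, and Sfrp2, Sfrp4 and Dact2 mainly in ASPCs.

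The share of nuclei with a Tcf7l2 UMI gave a similar ranking once depth was made equal. Each nucleus was thinned to 1000 UMIs, and shallower nuclei (10 and 5 adipocytes and 38 and 22 ASPCs of the libraries labelled WT and KO) were left out. At this depth 23.8% of adipocytes labelled WT (interval 19.7 to 28.2%) and 29.6% of those labelled KO (interval 26.6 to 32.7%) held a Tcf7l2 UMI. In ASPCs the shares were 36.2% (interval 30.3 to 42.3%) and 34.8% (interval 31.4 to 38.3%), close to each other. Free RNA gives UMIs in nuclei that do not transcribe a gene, and the share in B cells labelled WT, 2.48% (interval 1.33 to 4.21%), stands as the background of the library labelled WT. The share in T cells labelled WT, 1.47%, was at or below it. For the library labelled KO, 0 of 63 T cells held a Tcf7l2 UMI at this depth, which allows a share of up to 4.76%. Without thinning, 60.5% of adipocytes labelled WT and 85.0% of those labelled KO held a UMI, at median depths of 3651.5 and 7848.5 UMIs.

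Between the libraries, Tcf7l2 was moderately higher in the adipocytes and ASPCs of the library labelled KO as scaled here, and lower once genes of like intronic length were taken as the reference. In adipocytes the ratio of labelled KO over labelled WT was 1.35 (interval 1.23 to 1.49), and in ASPCs it was 1.27 (interval 1.11 to 1.45). With mitochondrial genes and Malat1 left out of the total, these ratios were 1.14 (interval 1.04 to 1.25) and 1.05 (interval 0.922 to 1.20), so that the difference in ASPCs was then within counting error. The corrected ratios were 0.494 and 0.419, since genes with introns as long as those of Tcf7l2 (183 kb in all) were higher by 1.46 and 1.60 on the log2 scale in the library labelled KO. The direction of Tcf7l2 between the libraries therefore turned with this choice. In myeloid cells it was lower in the library labelled KO on both scales, with a ratio of 0.702 (interval 0.565 to 0.877) and a corrected ratio of 0.226. The myeloid class is made of different clusters in the 2 libraries, however, with 311 nuclei labelled WT in cluster 7 and, labelled KO, 546 in cluster 3, which holds no nucleus labelled WT, and 244 in cluster 9. As scaled, Tcf7l2 in cluster 9 labelled KO was level with cluster 7 labelled WT (188 and 184 CPM, ratio 1.02, interval 0.798 to 1.32), and cluster 3 was lower (ratio 0.511, interval 0.400 to 0.656), in a comparison added after the values were seen. Corrected for intronic length, both were lower than cluster 7, with ratios of 0.369 for cluster 9 (interval 0.288 to 0.475) and 0.170 for cluster 3 (interval 0.133 to 0.219). In endothelial cells the ratio was 1.84 (interval 1.30 to 2.67) and the corrected ratio 0.673. In T cells, with 12 and 2 UMIs, no difference was detectable at this depth.

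A ratio of ratios, the difference between libraries in one class over that in another, leaves out whatever a gene shares between classes. For Tcf7l2 the adipocyte ratio over the ASPC ratio was 1.07 as scaled (interval 0.912 to 1.25), so that adipocytes, where the Cre acts, and ASPCs were not told apart by counting error. This call held with mitochondrial genes and Malat1 left out of the total (1.08, interval 0.922 to 1.27). It did not hold under TMM scaling (1.22, interval 1.04 to 1.43) or corrected for intronic length (1.18, interval 1.00 to 1.38, its lower limit just above 1). The 1.07 as scaled was 0.10 on the log2 scale, where the 8589 genes tested in both classes had a median of −0.13 and quartiles of −0.52 and 0.26. The adipocyte ratio was 1.93 times (interval 1.53 to 2.44) and the ASPC ratio 1.80 times (interval 1.40 to 2.32) the myeloid ratio. Against endothelial cells the order ran the other way, with the ASPC ratio at 0.687 times the endothelial one (interval 0.475 to 0.993) and the adipocyte ratio at 0.734 times (interval 0.514 to 1.05, within counting error). The myeloid class holds different clusters in the 2 libraries, and the part of this make-up in these contrasts was not tested.

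**Figure D2:**
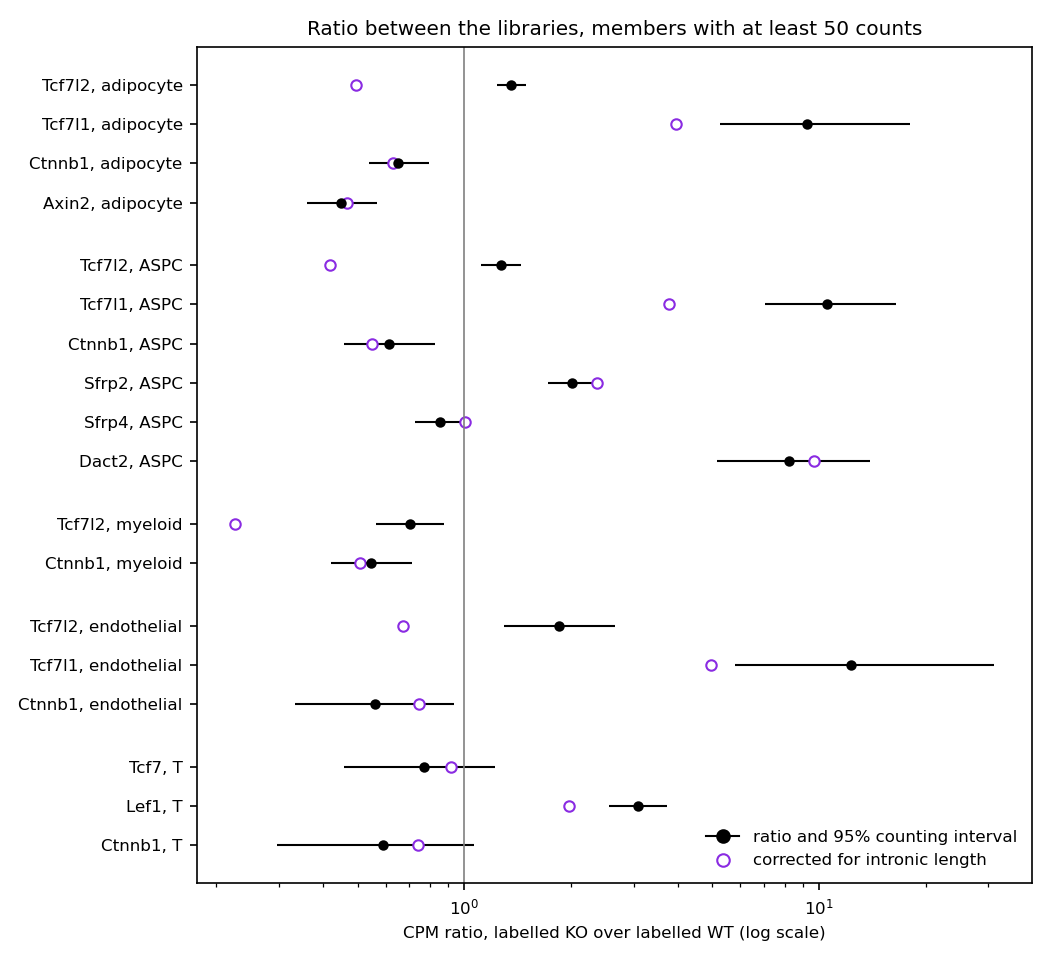
Ratio of CPM, labelled KO over labelled WT (log axis), of each member in the classes where it had at least 50 UMIs over both libraries, as scaled here (filled, with 95% intervals for counting error) and corrected for intronic length (open). Tcf7l2 lies above 1 as scaled and below 1 as corrected in adipocytes and ASPCs, Tcf7l1 above 1 on both scales, and Ctnnb1 below 1 in adipocytes on both scales.

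**Figure D3:**
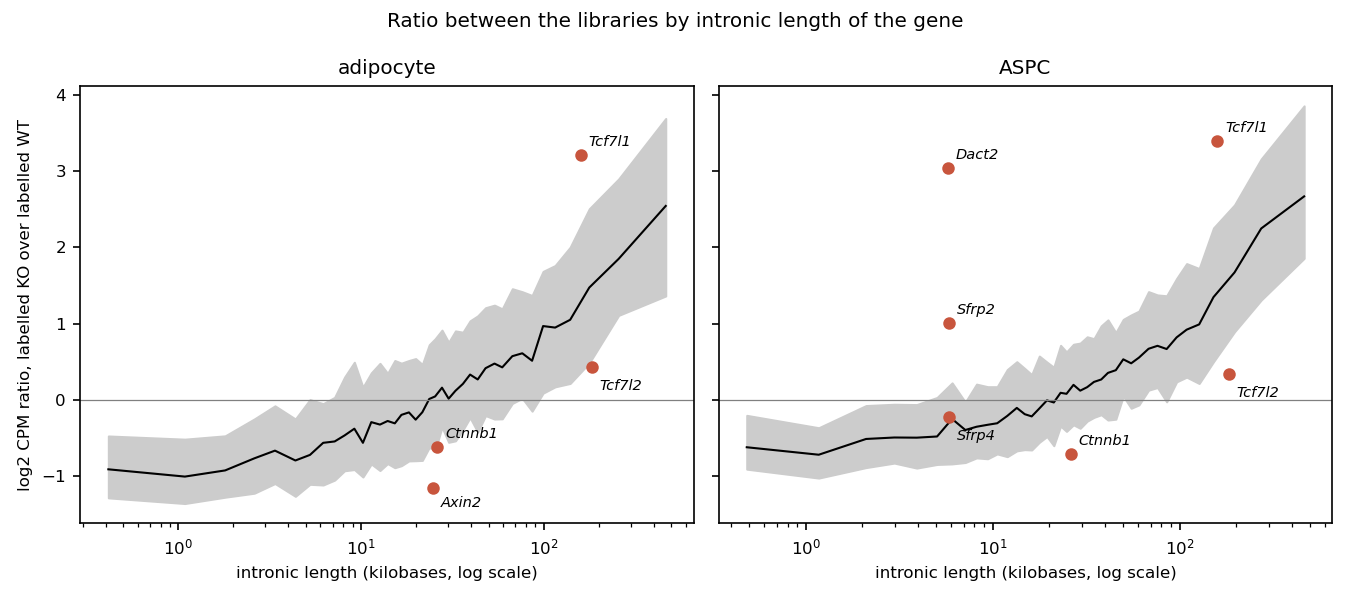
Median log2 ratio, labelled KO over labelled WT, of genes ordered by total intronic length (kilobases, log axis) in adipocytes and in ASPCs, as a line with a grey band from the lower to the upper quartile and the members as red points. The ratio climbs with length in both classes, and Tcf7l2 lies below the line of genes of its length where Tcf7l1 lies above it.

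Adipocytes were not uniform for Tcf7l2 within the library labelled KO. Its subcluster of 483 nuclei had 500.7 CPM (interval 477 to 526) and its subcluster of 369 nuclei had 277 CPM (interval 263 to 292), and the former over the latter was 1.80 (interval 1.68 to 1.94). Axin2 ran the other way, with 15.7 CPM (interval 11.7 to 20.6) in the subcluster with more Tcf7l2 and 35.1 CPM (interval 30.1 to 40.7) in the other, and the ratio of the second over the first was 2.24 (interval 1.63 to 3.12). The median depth of these subclusters differed, at 6191 and 11297 UMIs, and its part in both results was not tested. The subclusters of the library labelled WT, with 267 and 151 nuclei, had 283 and 253 CPM of Tcf7l2 (ratio 1.12, interval 0.938 to 1.33) and 62.2 and 58.4 CPM of Axin2, without a difference beyond counting error. The smaller of these has the lymphocyte genes Lck, Slamf6 and Siglecg among its leading genes.

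Tcf7l1, the family member known mainly as a repressor of pathway targets, was concentrated in vessel wall and stroma. In the library labelled KO it had 522 CPM in endothelial cells (128 UMIs, interval 436 to 621), 338 CPM in ASPCs (interval 318 to 358), 90.7 CPM in myocytes (interval 58.1 to 135), 56.8 CPM in adipocytes (interval 51.9 to 62.1) and 4.87 CPM in myeloid cells (13 UMIs). Endothelial cells exceeded ASPCs 1.55-fold (interval 1.28 to 1.86), and ASPCs exceeded adipocytes 5.94-fold (interval 5.34 to 6.62). The 44 mural nuclei had 828 CPM (interval 684 to 993). The library labelled WT had lower levels, with 42.6 CPM in endothelial cells (7 UMIs, interval 17.1 to 87.8), 32.2 CPM in ASPCs (24 UMIs, interval 20.6 to 47.9) and 6.14 CPM in adipocytes (12 UMIs, interval 3.17 to 10.7), so that endothelial cells and ASPCs were not told apart there.

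Tcf7l1 was higher in the library labelled KO in adipocytes, ASPCs and endothelial cells, as scaled and as corrected. Its level in the library labelled KO was 10.5 times that in the library labelled WT in ASPCs (interval 7.02 to 16.4), 9.25 times in adipocytes (interval 5.25 to 18.0) and 12.3 times in endothelial cells (interval 5.78 to 31.1). Corrected for intronic length (160 kb), the ratios were 3.78 in ASPCs (interval 2.52 to 5.92), 3.94 in adipocytes (interval 2.23 to 7.67) and 4.96 in endothelial cells. The gap did not differ between adipocytes and ASPCs beyond counting error (ratio of ratios 0.881, interval 0.437 to 1.78), nor between ASPCs and endothelial cells (0.856, interval 0.362 to 2.03). At 1000 UMIs per nucleus, 3.46% of ASPCs labelled WT (interval 1.59 to 6.47%) and 24.7% of those labelled KO (interval 21.7 to 27.9%) held a Tcf7l1 UMI. In classes that had few Tcf7l1 UMIs, the shares were 0.191% of B cells labelled WT and, for the library labelled KO, which has too few B cells, 0.787% of its myeloid cells (6 of 762). In the ASPCs labelled KO, 549 nuclei held Tcf7l2, 446 held Tcf7l1 and 357 of 783 held both, and in those labelled WT the counts were 147, 24 and 16 of 298, at unequal depth.

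Lef1 and Tcf7, known for their part in T cell development, were read out mainly in T cells. Lef1 had 339 CPM in T cells labelled WT (357 UMIs, interval 304 to 376), 10.5 times its level in B cells of that library (interval 7.63 to 14.8). Tcf7 had 166 CPM there (175 UMIs, interval 142 to 193), 7.63 times its level in B cells (interval 5.13 to 11.7). In the adipocytes of that library Lef1 had 22 UMIs and Tcf7 19, and in the adipocytes labelled KO 8 and 4 UMIs, beside the T or NK cell list at 172 and 12 CPM in the same nuclei. In ASPCs labelled KO no Lef1 UMI was counted, which allows a level of up to 0.908 CPM, and 1 Tcf7 UMI was counted.

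In T cells Lef1 was higher in the library labelled KO, at 1045 CPM (164 UMIs, interval 891 to 1218), a ratio of 3.09 (interval 2.55 to 3.72) and of 1.97 when corrected. Tcf7 had 127 CPM (20 UMIs, interval 77.9 to 197), and its ratio of 0.768 (interval 0.458 to 1.22, corrected ratio 0.919) was within counting error. The T class did not hold like cells in the 2 libraries. Of the 70 nuclei labelled KO, 63 came from cluster 14, led by Klra8 and Ncr1, genes of NK cells, and in the class as a whole the T cell gene Cd3e had 542 CPM labelled WT and 223 CPM labelled KO, Ncr1 31.3 and 548 CPM, and Klra8 20.9 and 771 CPM. Of the 164 Lef1 UMIs, 48 came from 3 nuclei. In single nuclei, 64 of 774 labelled WT held both Lef1 and Tcf7, of 267 with Lef1 and 147 with Tcf7, and 14 of 70 labelled KO held both, of 38 and 16.

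Ctnnb1 (chr9:120933400-120960507), which encodes beta-catenin, was counted in every class of at least 50 nuclei and was lower in the library labelled KO in adipocytes, ASPCs and myeloid cells. In the library labelled WT it had 219 CPM in endothelial cells (36 UMIs, of which 18 came from 3 nuclei), 148 CPM in B cells (interval 128 to 170), 132 CPM in myeloid cells, 130 CPM in T cells, 88.5 CPM in ASPCs (interval 68.4 to 113) and 73.7 CPM in adipocytes (144 UMIs, interval 62.2 to 86.8). Adipocytes thus stood below B cells (B cells over adipocytes 2.01, interval 1.61 to 2.50) and were not told apart from ASPCs (ASPCs over adipocytes 1.20, interval 0.883 to 1.62). Where labelled KO, it had 122 CPM in endothelial cells, 72.2 CPM in myeloid cells, 54.2 CPM in ASPCs (interval 46.5 to 62.7) and 48.0 CPM in adipocytes (415 UMIs, interval 43.5 to 52.9), and these 4 classes had the same order as where labelled WT. The 70 T cells labelled KO had 76.5 CPM (12 UMIs, interval 39.5 to 134), above myeloid cells where in the library labelled WT they lay just below them, and myocytes had 41.6 CPM (11 UMIs, interval 20.8 to 74.4). Neither was told apart by its interval from the myeloid, ASPC and adipocyte levels.

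The Ctnnb1 ratio of labelled KO over labelled WT was 0.651 in adipocytes (interval 0.538 to 0.793), 0.612 in ASPCs (interval 0.459 to 0.825) and 0.546 in myeloid cells (interval 0.420 to 0.714), and the corrected ratios were 0.630, 0.549 and 0.507. In myeloid cells the lower level held in both clusters labelled KO against cluster 7 labelled WT, with ratios of 0.620 for cluster 9 (interval 0.438 to 0.874) and 0.563 for cluster 3 (interval 0.420 to 0.760). Unlike Tcf7l2, it kept its direction in these classes. The lower level was no more marked in adipocytes than in ASPCs beyond counting error (ratio of ratios 1.06, interval 0.757 to 1.49) or than in myeloid cells (1.19, interval 0.868 to 1.64). The ratio was 0.559 in endothelial cells (interval 0.332 to 0.933), where the corrected ratio of 0.747 (interval 0.444 to 1.25) included 1, and 0.588 in T cells (interval 0.297 to 1.06, corrected ratio 0.742). Thinned to 1000 UMIs, 5.88% of adipocytes labelled WT (interval 3.80 to 8.63%) and 5.29% of those labelled KO (interval 3.91 to 6.97%) held a Ctnnb1 UMI, so that a difference was not detectable by shares at this depth.

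Axin2 (chr11:108917828-108950783), a scaffold of the destruction complex that the pathway itself switches on, had its highest level in adipocytes and was lower in the adipocytes labelled KO. Where labelled WT, it had 60.4 CPM in adipocytes (118 UMIs, interval 50.01 to 72.4), 39.8 CPM in T cells (42 UMIs, interval 28.7 to 53.9), 16.1 CPM in ASPCs (12 UMIs, interval 8.31 to 28.1) and 4.50 CPM in B cells (6 UMIs). Adipocytes exceeded T cells 1.52-fold (interval 1.06 to 2.21) and ASPCs 3.75-fold (interval 2.07 to 7.47). Where labelled KO, it had 27.2 CPM in adipocytes (235 UMIs, interval 23.8 to 30.9) and 4.54 CPM in ASPCs (15 UMIs, interval 2.54 to 7.49), a ratio of 5.99 between these classes (interval 3.56 to 10.9). Adipocytes and T cells were not told apart in that library (ratio 1.42, interval 0.481 to 6.94, with 3 UMIs in T cells).

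The Axin2 ratio of labelled KO over labelled WT was 0.450 in adipocytes (interval 0.359 to 0.566), with a corrected ratio of 0.466 and one of 0.552 under TMM scaling, and 0.282 in ASPCs (interval 0.123 to 0.660), from 27 UMIs in all. In T cells 42 and 3 UMIs gave a ratio of 0.480 (interval 0.0952 to 1.50). The adipocyte ratio did not differ from the ASPC ratio beyond counting error (ratio of ratios 1.60, interval 0.724 to 3.52). At 1000 UMIs per nucleus, 4.90% of adipocytes labelled WT (interval 3.02 to 7.47%) and 2.36% of those labelled KO (interval 1.47 to 3.59%) held an Axin2 UMI, against 0.191% of B cells labelled WT and 0.262% of myeloid cells labelled KO. Of the 92 adipocytes labelled WT with an Axin2 UMI, 60 (65.2%) also held Tcf7l2, where 60.5% of all did, and of the 174 labelled KO, 155 (89.1%) did, where 85.0% of all did. The nuclei with Axin2 were deeper, with medians of 5649.5 and 12881 UMIs.

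Over the 4 members with at least 50 UMIs in adipocytes, Tcf7l1 had a ratio of at least 2, as 25.9% of the 11351 genes tested did, and Axin2 a ratio of at most 0.5, as 17.6% of genes did. Tcf7l2 and Ctnnb1 lay between. Over the 6 such members in ASPCs, Tcf7l1, Sfrp2 and Dact2 had a ratio of at least 2, where 25.1% of the 9245 genes tested did, and 0 had a ratio of at most 0.5, where 8.77% did. Lef1 was 1 of 3 such members in T cells with a ratio of at least 2 (15.4% of genes, and 22.7% at most 0.5), and Tcf7l1 1 of 3 in endothelial cells (31.8% of genes, and 16.4% at most 0.5). Corrected for intronic length, Tcf7l1 in adipocytes and the same 3 members in ASPCs had a ratio of at least 2, as did 19.0% and 14.5% of genes, and Tcf7l2 in both classes and Axin2 in adipocytes had a ratio of at most 0.5, as did 12.1% of genes in adipocytes and 9.15% in ASPCs. Large ratios were thus common among all genes of these 2 libraries.

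The secreted inhibitors Sfrp2 (chr3:83765750-83774314) and Sfrp4 (chr13:19623175-19632825), which bind WNT ligands outside the cell, were genes of ASPCs in both libraries. Sfrp2 had 249 CPM in ASPCs labelled WT (186 UMIs, interval 215 to 288), 44.3 times its level in adipocytes (interval 24.2 to 90.2), and 500.2 CPM in ASPCs labelled KO (1653 UMIs, interval 476 to 525). Sfrp4 had 239 CPM (178 UMIs, interval 205 to 276) and 204 CPM (675 UMIs, interval 189 to 220). Sfrp4 was at or under 12.2 CPM in the other classes of at least 50 nuclei.

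Sfrp2 was thus 2.01-fold higher in ASPCs labelled KO (interval 1.72 to 2.35, corrected ratio 2.36), and Sfrp4 did not differ beyond counting error (ratio 0.856, interval 0.724 to 1.02, corrected ratio 1.01). That call for Sfrp4 hung on the settings: its ratio lay below 1 with mitochondrial genes and Malat1 left out of the total (0.710, interval 0.601 to 0.842) and with at least 1000 genes per nucleus (0.699, interval 0.584 to 0.840). Few nuclei carried these UMIs. Sfrp2 was found in 41 nuclei labelled WT, where 3 nuclei gave 98 of 186 UMIs, and in 150 labelled KO, where 3 gave 444 of 1653. Without those nuclei the Sfrp2 ratio was 3.06 (interval 2.47 to 3.85). For Sfrp4, 3 nuclei gave 84 of 178 UMIs in the library labelled WT and 188 of 675 in that labelled KO, and without them the ratio was 1.11 (interval 0.888 to 1.40). The share of ASPCs with an Sfrp2 UMI at 1000 UMIs was 8.46% in the library labelled WT (interval 5.38 to 12.5%) and 9.33% in that labelled KO (interval 7.36 to 11.6%), and for Sfrp4 the shares were 13.5% (interval 9.56 to 18.2%) and 9.33% (interval 7.36 to 11.6%). So the difference in the Sfrp2 level was not seen in the share of nuclei at this depth. In ASPCs labelled KO, 78 nuclei held both genes.

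Wif1 (chr10:121034004-121100642), which also binds WNT ligands, was close to absent from the counts. It had 2 UMIs in the library labelled WT and 8 in that labelled KO, of which 6 lay in adipocytes (0.694 CPM, interval 0.255 to 1.51). None was counted in ASPCs, which allows up to 4.02 CPM where labelled WT and 0.908 CPM where labelled KO.

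Dact2 (chr17:14195230-14204327), a protein that binds Dishevelled, the relay between receptor and destruction complex, was an ASPC gene with a wide gap between the libraries. There were 24.1 CPM in ASPCs labelled WT (18 UMIs in 14 nuclei, interval 14.3 to 38.1) and 198 CPM in those labelled KO (654 UMIs in 238 nuclei, interval 183 to 214). The ratio was 8.20 (interval 5.15 to 13.9), the corrected ratio 9.66, and with at least 1000 genes per nucleus the ratio was 15.0 (interval 7.25 to 37.5). With 0 UMIs it was not detected in adipocytes labelled WT, which allows up to 1.54 CPM, and it had 0.810 CPM in those labelled KO. Its introns add up to 5793 bases, few among genes, and the share at 1000 UMIs showed the same gap, with 2.69% of ASPCs labelled WT (interval 1.09 to 5.47%) and 17.0% of those labelled KO (interval 14.4 to 19.8%). No B cell labelled WT held a Dact2 UMI at this depth, so that a share of up to 0.573% is allowed, and 0.394% of myeloid cells labelled KO did.

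The ASPC members divided the class. Clustered without the members, the ASPCs split into 5 subclusters, of which 4 were set side by side by their leading marker panel (a pairing made after their values were seen). Those led by the interstitial progenitor panel with Pi16 and Dpp4 numbered 120 nuclei labelled WT and 395 labelled KO, those led by the committed preadipocyte panel 157 and 265, and a subcluster with Comp among its leading genes 21 and 111, where the 21 nuclei are too few for a comparison. The last was kept apart for its leading genes, not by its panels: the committed panel led in its nuclei labelled KO (2772 CPM, with 2702 for the regulatory and 1743 for the interstitial panel), and the interstitial panel in its nuclei labelled WT (3060 CPM, with 2446 for the committed panel). The first 2 panels are each carried by a different subcluster in each library.

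Dact2 marked the Pi16 and Dpp4 subclusters in both libraries. Its level there was 103 CPM where labelled WT and 437 CPM where labelled KO, a ratio of 4.26 (interval 2.67 to 7.24, corrected ratio 6.44). In the committed subclusters it had no UMI in the library labelled WT, which allows up to 6.26 CPM, and 15.9 CPM (19 UMIs) in that labelled KO. There 3 nuclei gave 12 of the 19 UMIs, and without them 5.85 CPM were left, below that limit, so that no difference is shown in these subclusters. Sfrp2 marked the Comp subcluster, with 1184 CPM in the 21 nuclei labelled WT, where 3 nuclei gave 95 of 108 UMIs, and 1975 CPM in the 111 labelled KO, where 3 gave 444 of 1543.

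In the Pi16 and Dpp4 pair and in the committed pair, Sfrp2 did not follow the ratio of the whole class. Its ratio was 0.900 in the Pi16 and Dpp4 pair (68.4 and 61.6 CPM, interval 0.488 to 1.82) and 0.176 in the committed pair (138 and 24.2 CPM, interval 0.110 to 0.276). The latter direction depends on the Comp subcluster being kept apart, since with it pooled into the committed subclusters the ratio was 2.60 (305 and 795 CPM, interval 2.23 to 3.06). Of the 1653 Sfrp2 UMIs labelled KO, 1543 lay in the Comp subcluster. There the level was higher where labelled KO, as in the whole class (1184 and 1975 CPM), with only 21 nuclei labelled WT. As scaled, the Sfrp4 ratio was below 1 within both pairs, at 0.500 (228 and 114 CPM, interval 0.350 to 0.728) and 0.181 (64.7 and 11.7 CPM, interval 0.0889 to 0.350). It was within counting error in the former once corrected for intronic length (0.754, with an interval from 0.528 that includes 1), and in the latter with the Comp subcluster pooled in (interval 0.911 to 1.34). Pooled in and corrected for intronic length, the latter ratio was above 1 (1.25, interval 1.04 to 1.52), so that its direction turned. In the Comp subcluster Sfrp4 had 1173 and 657 CPM.

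As in the whole class, the direction of Tcf7l2 within both pairs turned with intronic length, while Tcf7l1 was higher where labelled KO on both scales. As scaled, Tcf7l2 went from 274 to 455 CPM in the Pi16 and Dpp4 pair (ratio 1.66, interval 1.24 to 2.28) and from 422 to 616 CPM in the committed pair (ratio 1.46, interval 1.25 to 1.72). With the Comp subcluster kept apart, the committed subclusters thus had the higher level in each library. With it pooled in, they had 386 CPM where labelled WT and 458 CPM where labelled KO, the latter close to the 455 CPM of the Pi16 and Dpp4 subcluster. The corrected ratios of the 2 pairs were 0.550 (interval 0.410 to 0.755) and 0.523 (interval 0.447 to 0.614). Tcf7l1 went from 22.8 to 316 CPM (ratio 13.9, interval 5.38 to 51.2, corrected ratio 5.17) and from 31.3 to 462 CPM (ratio 14.8, interval 8.87 to 26.6, corrected ratio 5.63). Ctnnb1 was lower in the committed pair, with 93.9 and 46.8 CPM (ratio 0.498, interval 0.331 to 0.755, corrected ratio 0.480). In the Pi16 and Dpp4 pair it had 91.2 and 53.9 CPM, within counting error as scaled (ratio 0.591, interval 0.340 to 1.09) and at its edge as corrected (0.538, interval 0.310 to 0.993). Axin2 had between 3 and 11 UMIs in each of these 4 subclusters.

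**Figure D4:**
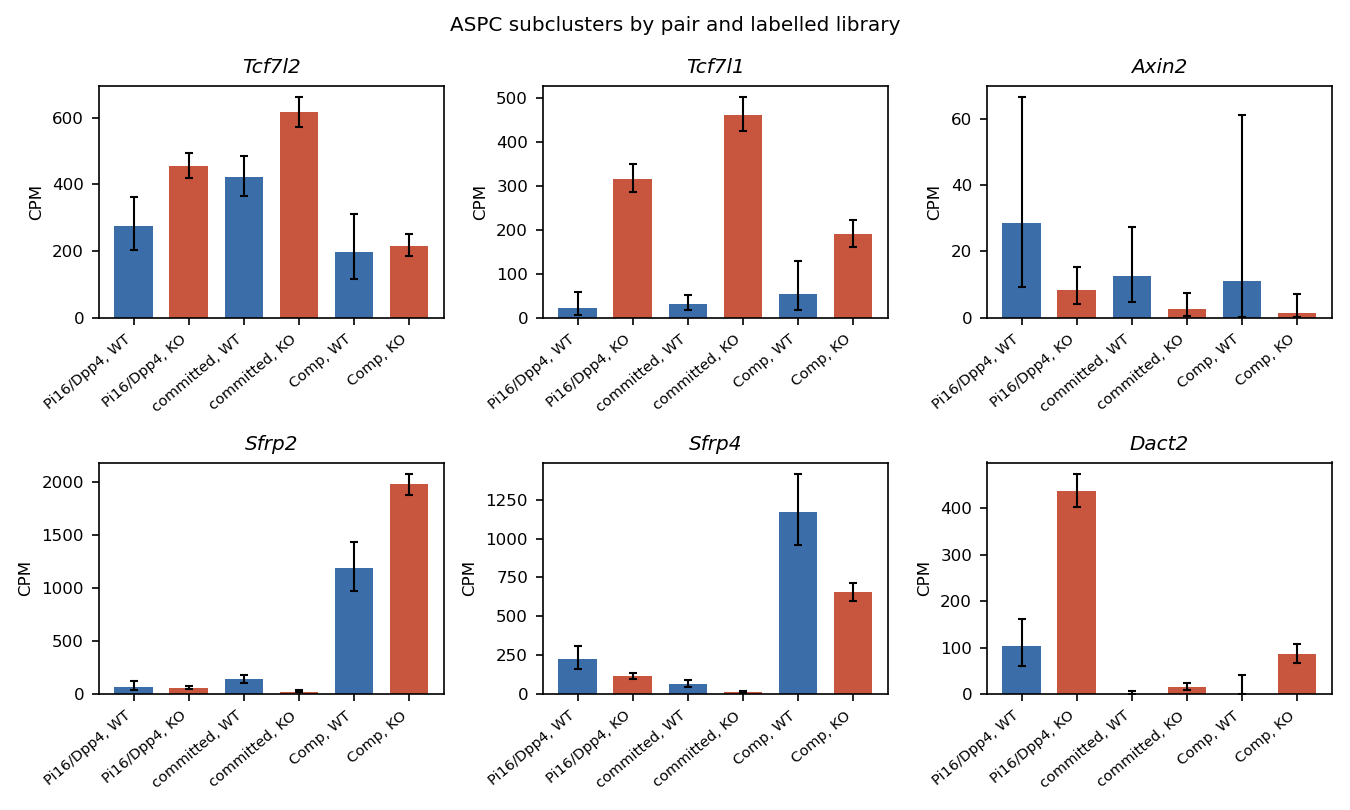
Level (CPM) of 6 members in ASPC subclusters, by pair and labelled library (WT blue, KO red), with exact Poisson 95% intervals for counting error. Dact2 stands highest in the Pi16 and Dpp4 subclusters, Sfrp2 and Sfrp4 in the subcluster with Comp (21 nuclei labelled WT), and Tcf7l2 in the committed subclusters.

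The members were then set among a list of 93 WNT pathway genes. In adipocytes 41 had at least 50 UMIs, of which 12 had a ratio of at least 2, 9 a ratio of at most 0.5 and 20 lay between, with a median log2 ratio of 0.11, beside −0.01 over all genes tested. These are 29.3% and 22.0% of the list genes tested, where 25.9% and 17.6% of all genes were so placed. In ASPCs 50 did, of which 13 had a ratio of at least 2, 5 of at most 0.5 and 32 lay between, with a median of 0.07, beside 0.13 over all genes, and these are 26.0% and 10.0% of the list genes tested, where all genes had 25.1% and 8.77%. Corrected for intronic length, 8 list genes in adipocytes were at least 2 (19.5%, beside 19.0% of all genes) and 5 at most 0.5 (12.2%, beside 12.1%), with a median of −0.09. In ASPCs, 11 were then at least 2 (22.0%, beside 14.5%) and 5 at most 0.5 (10.0%, beside 9.15%), with a median of 0.11.

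By role, the ligands in ASPCs were led by Wnt5a, known for signalling without beta-catenin (42.9 and 35.7 CPM, ratio 0.832), Wnt2 (28.2 and 47.2 CPM, ratio 1.68, interval 1.06 to 2.78) and Wnt5b (2 and 223 UMIs, ratio 25.2, interval 6.88 to 209). Their corrected log2 ratios were −0.08, 0.38 and 3.67. In adipocytes Wnt5a had 39.9 and 21.3 CPM (ratio 0.533, interval 0.407 to 0.704, corrected log2 ratio −0.60), and Wnt2b had 0 and 96 UMIs, at least 7.23-fold higher in the library labelled KO with 3 counts in place of 0, where the exact interval starts lower, at 5.77. Wls, which carries WNT proteins to the cell surface, had ratios of 0.886 in adipocytes (interval 0.785 to 1.00) and 0.950 in ASPCs, and corrected log2 ratios of −0.96 and −0.84.

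Of the receptors, Fzd4 in adipocytes had 330 and 316 CPM (ratio 0.958, interval 0.878 to 1.05, corrected log2 ratio 0.82), and its co-receptor Lrp6 had 138 and 197 CPM (ratio 1.42, interval 1.25 to 1.63, corrected log2 ratio −0.37, so that its direction turned). Lgr4, a receptor of R-spondins, which strengthen WNT signals, had 28.2 and 261 CPM in adipocytes (ratio 9.28, interval 7.10 to 12.4, corrected log2 ratio 2.50). In ASPCs Ror1, a receptor for Wnt5a, had 14.8 and 437 CPM (ratio 29.6, interval 16.5 to 59.5, corrected log2 ratio 2.50). There Lrp6 (ratio 1.06, interval 0.895 to 1.27, corrected log2 ratio −0.85) and Fzd4 (ratio 0.934, interval 0.750 to 1.17, corrected 0.45) lay within counting error as scaled. Of 10 receptors tested in ASPCs, 3 had a ratio of at least 2 (Lgr4, Ror1 and Ror2), beside 25.1% of all genes. None had one of at most 0.5, beside 8.77%. In adipocytes 2 of 9 were at least 2, beside 25.9%, and 2 at most 0.5, beside 17.6%. Corrected for intronic length, the same 3 receptors in ASPCs were at least 2, beside 14.5%, and 0 at most 0.5, beside 9.15%. In adipocytes 1 (Lgr4) was then at least 2, beside 19.0%, and 0 at most 0.5, beside 12.1%.

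Among the inhibitors, Znrf3, which removes Frizzled from the membrane, had 13.8 and 91.5 CPM in adipocytes (ratio 6.62, interval 4.52 to 10.1), Sfrp5 4.10 and 13.5 CPM (ratio 3.30, interval 1.62 to 7.84), and Dkk2 in ASPCs 33.5 and 180 CPM (ratio 5.38, interval 3.61 to 8.38). The corrected log2 ratios of these 3 genes were 1.50, 2.50 and 1.70. In adipocytes Sfrp4 was lower with doublets removed (17 and 23 UMIs, ratio 0.306, interval 0.156 to 0.610, too few for a correction). With no doublets removed its ratio was within counting error (0.739, interval 0.423 to 1.36). Of the 17 UMIs labelled WT, 11 came from 3 nuclei. The ASPC list summed to 1234 and 416 CPM in the adipocytes of the 2 libraries, and its part in the Sfrp4 ratio was not tested. Kremen1 was within counting error in adipocytes (ratio 1.35, interval 0.843 to 2.25, corrected log2 ratio −0.09). Of the inhibitors tested in adipocytes, 2 of 2 secreted and 1 of 2 membrane ones were at least 2, beside 25.9% of all genes. In ASPCs these were 2 of 4 and 1 of 2, beside 25.1%. None was at most 0.5 in either class, beside 17.6% and 8.77%. Corrected, the inhibitors at least 2 were again 2 of 2 and 1 of 2 in adipocytes, beside 19.0%. In ASPCs they were 2 of 4 and 0 of 2, beside 14.5%, since Znrf3 was no longer among them. None was then at most 0.5, beside 12.1% and 9.15%. Of 13 cytoplasmic genes tested in adipocytes, 5 had a ratio of at most 0.5 (Amer1, Axin2, Dvl1, Dvl2 and Dvl3), beside 17.6% of all genes, and 3 of at least 2 (Axin1, Btrc and Nkd1), beside 25.9%, with a median log2 ratio of −0.62, beside −0.01 over all genes. Amer1, which recruits the complex to the membrane, had 186 and 62.9 CPM (ratio 0.338, interval 0.295 to 0.387, corrected log2 ratio −1.32), and the kinase gene Gsk3b 408 and 311 CPM (ratio 0.763, interval 0.705 to 0.827, corrected log2 ratio −1.43). After correction the median of these 13 genes was −0.59, with 3 at most 0.5 (Amer1, Axin2 and Gsk3b), beside 12.1% of all genes, and 0 at least 2, beside 19.0%. In ASPCs 13 such genes were tested. Of these, 2 were at most 0.5 (Amer1 and Dvl1), beside 8.77% of all genes, and 3 at least 2 (Axin1, Btrc and Dact2), beside 25.1%. Their median log2 ratio was −0.26, beside 0.13 over all genes. After correction 2 were at most 0.5 (Dvl1 and Gsk3b), beside 9.15%, and 2 at least 2 (Axin1 and Dact2), beside 14.5%, with a median of −0.50. The corepressor gene Tle1 had 25.6 and 144 CPM in adipocytes (ratio 5.62, interval 4.24 to 7.62, corrected log2 ratio 1.86). Of 9 genes of nuclear factors and cofactors tested in adipocytes, 2 were at least 2 (Tcf7l1 and Tle1), beside 25.9% of all genes. Another 2 were at most 0.5 (Pygo2 and Tle4), beside 17.6%. Corrected, the same 2 were at least 2, beside 19.0%, and Tcf7l2 and Tle4 at most 0.5, beside 12.1%. Of the 3 target genes tested in adipocytes, Axin2 had a ratio of at most 0.5, beside 17.6% of all genes. Nkd1 (12.3 and 35.1 CPM, ratio 2.85, interval 1.88 to 4.52) and Znrf3 had one of at least 2, beside 25.9%. Corrected, Axin2 was still at most 0.5 and Znrf3 at least 2, while Nkd1, at a log2 ratio of 0.93, was not.

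**Figure D5:**
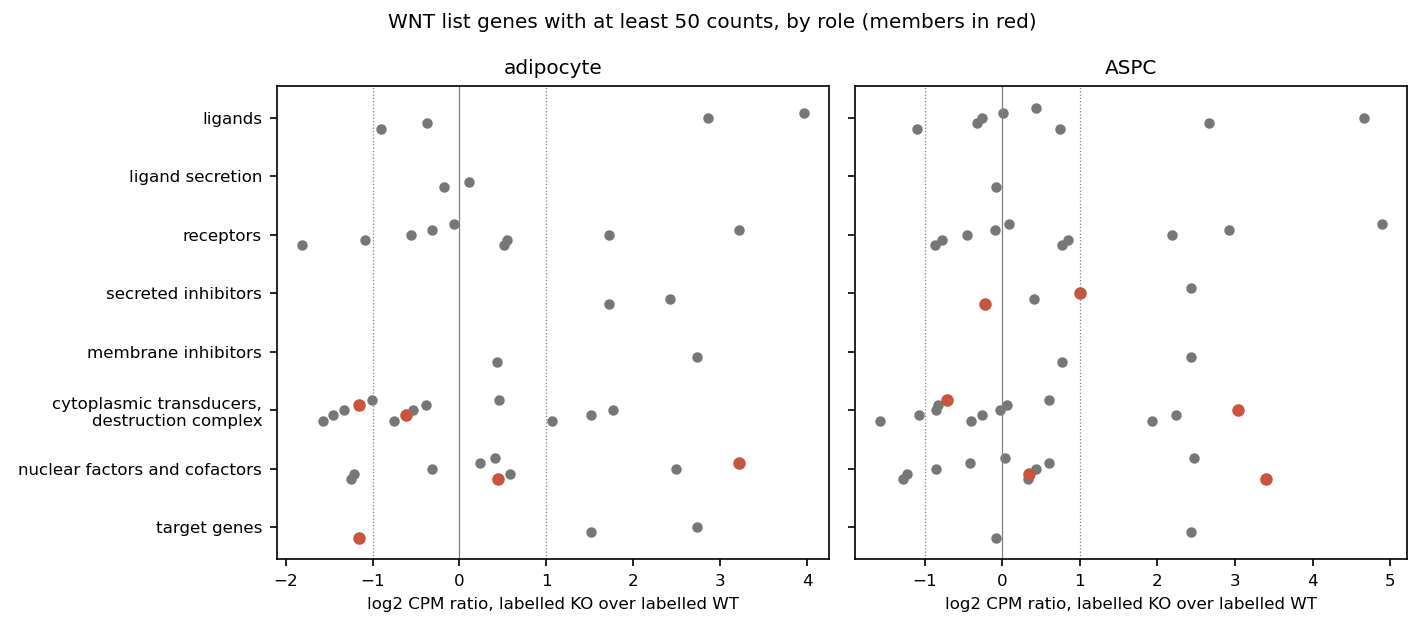
Log2 ratio, labelled KO over labelled WT, of the tested genes of the WNT list by role, in adipocytes and in ASPCs, each point a gene, the members in red, dotted lines at −1 and 1, and genes without a UMI in a library at their bound. Genes of most roles lie on both sides of 0, and the highest red point among nuclear factors is Tcf7l1 in both classes.

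The genes whose level was most like that of a member were taken from the class sums, with log2(CPM + 10) centred within each library. The values are Pearson correlations over 12 class and library points, which share libraries and are no independent samples, among 7578 genes. For Tcf7l2 they were Gkap1 (0.973), Nfia (0.956), Fam135a (0.943) and Arhgef12 (0.939). For Tcf7l1 they were Fam13c (0.976), Prickle2 (0.954), Pard3b, Tek and Pls3. Lef1 was like Bcl11b (0.993), Skap1, Gzma and Trbc2, Ctnnb1 most like Ctdspl2 (0.961), Mtmr2, Mgat4a, Ndufa7 and Slc35a3, and Sfrp2 most like Col1a1 (0.994), Col1a2, Mmp3, Col3a1 and Islr. Sfrp4 was most like Fbln1 (0.997), Tnxb, Pdgfra, Cd248 and Serping1, and Dact2 most like Sema3e (0.995), Opcml, Ano3, Antxr1 and Gli3. Tcf7, Axin2 and Wif1 had fewer than 500 UMIs and were not compared in this way.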

How the data were processed

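Single-nucleus RNA was measured with 10x Genomics 3′ v3.1 chemistry. The authors deposited UMI counts per gene and barcode, as whole numbers, made with Cell Ranger 6.1.1 (file headers). The submitters' processing notes name mm10 and Seurat 4, and whether intronic reads were counted is not given in the sources used here. Barcodes with at least 500 genes and at most 5% mitochondrial UMIs were kept, 3649 of 5000 in the library labelled WT and 2944 of 5000 in the library labelled KO. The libraries totalled 9376351 and 19655049 UMIs. Scrublet (scanpy 1.11.5) called 0 doublets in the library labelled WT, where the nuclei with the top 4% of scores (146) were removed in their place, and 92 in the library labelled KO, which were removed as called, so that the libraries were treated differently in this step. Seurat 5.3.0 (R 4.3.3) clustered the merged nuclei on 2000 variable genes without 15 list genes (20 components, resolution 0.5), and 15 of 18 clusters were named from markers. Counts were summed per class and library and scaled to CPM in Python 3.11.15 (scipy 1.17.1), with exact Poisson intervals for levels, exact conditional binomial intervals for ratios and Clopper-Pearson intervals for shares. The ratio of ratios used the Poisson variance of 4 log counts. A level of 0 allows 3 counts. Intronic lengths came from GENCODE vM1, for lengths only. Ratios were tested for size where a gene had at least 50 UMIs in a class. TMM factors came from edgeR 4.0.16. The formulas of the ratio and its counting interval were tested on simulated adipocyte counts, and the other steps were not tested in this way. Genes named are the members, up to 3 list genes per role and class by mean CPM, with list genes past a ratio of 2 or 0.5 named in the role counts, and the 5 likest genes, of which some are not reported here. The members and lists were chosen with earlier results of these data known.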

Additional observations from a re-analysis of the deposited data

Results flagged for a closer look

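Tcf7l2 was also counted in nuclei that no comparison used. In cluster 11, left unnamed and with Ccl19 and Ccl21a among its leading genes, the library labelled WT had 387 CPM (109 UMIs in 149 nuclei, interval 318 to 467), and only 1 nucleus came from the library labelled KO. In cluster 12, also unnamed, with Clec9a and Ccl22 among its leading genes, the library labelled WT had 134 CPM (34 UMIs in 102 nuclei, interval 92.7 to 187) and the 36 nuclei labelled KO had 233 CPM (25 UMIs). Both levels in the library labelled WT lie above the 29.3 CPM of its B cells.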

How the results depend on the processing

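Correction for intronic length turned the direction of Tcf7l2, whose ratio became 0.494 in adipocytes and 0.419 in ASPCs. With it the Sfrp2 ratio in ASPCs became 2.36, and the list genes at 0.5 or less in adipocytes 5 of 41 tested (12.2%, beside 12.1% of all genes). With TMM scaling, which moved all log2 ratios by 0.30 in adipocytes and 0.10 in ASPCs, Tcf7l2 in adipocytes had a ratio of 1.66, Ctnnb1 0.799, and the list genes at 0.5 or less numbered 4 in adipocytes (9.76%, beside 9.73% of all genes) and 3 of 50 in ASPCs (beside 6.77%). With mitochondrial genes and Malat1 left out of the total, Tcf7l2 had 1.14 in adipocytes and 1.05 in ASPCs, Sfrp2 1.66, Sfrp4 0.710, and 10 of 50 list genes in ASPCs were at 0.5 or less (beside 16.5% of all genes). With at least 1000 genes per nucleus Sfrp4 had 0.699, and the Dact2 ratio in ASPCs rose from 8.20 to 15.0, outside its counting interval. With a minimum of 20 UMIs, 18 of 56 list genes tested in adipocytes were at 0.5 or less (32.1%, beside 20.7% of 13543 genes). Without the 3 nuclei with most UMIs in each library, chosen after seeing the data, Sfrp2 had 3.06 and Sfrp4 1.11. Resolution, the genes used for clustering, clustering each library on its own and keeping doublets moved none of these results beyond its counting interval, or a count beyond 1.5 times. Outside these results, keeping doublets moved the Sfrp4 ratio in adipocytes from 0.306 to 0.739 (interval 0.423 to 1.36), beyond its counting interval. Directions also turned in results not rerun under those settings. Corrected for intronic length, Tcf7l2 in endothelial cells went from 1.84 to 0.673. With the Comp subcluster pooled into the committed subclusters, the Sfrp2 ratio there went from 0.176 to 2.60. The Sfrp4 ratio went from 0.181 to 1.25 when also corrected. No paired analysis was possible because each genotype has 1 library. Genotype, depth, file naming and sequencing library cannot be told apart. Depth limits Wif1 everywhere, Axin2 in ASPCs, and Tcf7l1 and Dact2 in the library labelled WT.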
